A study of Mus musculus with 5 samples.

Results

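The m6A sites described here lie in long internal coding exons. A position was included when it stood in a DRACH motif (D is A, G or U, R is A or G, H is A, C or U, with the methylated A before the C) in the coding sequence of an internal exon, neither first nor last, of 400 bases or more. The gene had to be protein-coding, and exons were those of its principal transcript in GENCODE M21 on mm10, on the strand of the call. In the METTL3 inhibition dataset this gave 1141 positions, 2.98% of 38335 DRACH positions, in 92 exons of 88 genes. In the Mettl5 dataset it gave 608 positions, 3.99% of 15249 DRACH positions, in 34 exons of 34 genes. Of 1464 positions found in either dataset, 285 in 23 genes were found in both. The choice used sequence and exon length alone, so the methylation levels below were not part of it.

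All 5 libraries were direct RNA sequencing of mouse embryonic stem cells (mESCs), in which native polyadenylated RNA passes through a nanopore and m6A is called from the current. The METTL3 inhibition dataset held 1 library of cells treated with STM2457, an inhibitor of METTL3, at 30 µM for 48 h and 1 library of cells given 0.025% DMSO. Both came from E14 cells with reporters (Zscan4::mCherry-PEST and 2C::3xtbGFP-PEST), an APOBEC1-YTH-HA-IRES-tdiRFP cassette under Dox control and a homozygous FKBP12F36V tag at the C-terminus of METTL3, with the cassette and the tag not induced in either library. The Mettl5 dataset held 1 WT library and 1 library from each of 2 Mettl5-KO clones, #1 and #2, made in an earlier study and not otherwise treated. The datasets come from different cell lines, and cell line cannot be told apart from other differences between the datasets where DMSO and WT differ. With 1 library per condition apart from the clones, every test per position compares libraries and not conditions.

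In mammalian mRNA, METTL3 methylates adenosines in complex with METTL14 and WTAP, and DRACH is the sequence it prefers. The exon junction complex, which splicing leaves upstream of each junction, is known to keep m6A away from nearby sequence, so that m6A collects in long internal exons and in last exons. Most internal coding exons are short, and long ones are therefore a small and particular part of the coding sequence.

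The positions with the highest DMSO level, at most 1 per gene and with 50 or more valid calls in both libraries, show what such a site looks like. The sequences are of GENCODE M21 transcripts on mm10, read 5′ to 3′ on the strand of the gene with 10 bases on each side of the methylated A, and capitals mark the DRACH motif.
Dnajb1 exon 2, chr8:83609969-83609989, plus strand: gaaggcatGGACAttgatgac
Ythdf1 exon 4, chr2:180910927-180910947, minus strand: tggtctcaGGACAagtggaag
Cog8 exon 3, chr8:107052588-107052608, minus strand: ggccgcttGGACTctctgctt
Hyal2 exon 2, chr9:107570795-107570815, plus strand: tatgtacaGAACTgggagagc
Degs1 exon 2, chr1:182279597-182279617, minus strand: aaagatttGGACTggaaatgg
Actg1 exon 4, chr11:120347242-120347262, minus strand: attgtcatGGACTctggtgac
Msh6 exon 4, chr17:87985490-87985510, plus strand: tgctttgtGGACActtcactg
Pelp1 exon 16, chr11:70393979-70393999, minus strand: tgggcctgAGACTgctcctac
Cdca5 exon 5, chr19:6090384-6090404, plus strand: cctgcaaaGGACTtggttccg
Chaf1b exon 12, chr16:93901196-93901216, plus strand: gccatcaaGGACAgtccctca
GGACT stood at 4 of these 10, GGACA at 4, GAACT at 1 and AGACT at 1. Against them stand the GGACT positions of these exons under 50 bases from a junction. Of 14, 4 had 50 or more valid calls in both libraries, and their DMSO level was 3.23% (Hyal2), 4.27% (Eif3l), 17.1% (Msh6) and 64.6% (Senp3).
Eif3l exon 11, chr15:79089935-79089955, plus strand: tcggaggtGGACTtctatatt
Hyal2 exon 2, chr9:107571042-107571062, plus strand: acacccgaGGACTcacgggac
Msh6 exon 4, chr17:87986936-87986956, plus strand: aaccacaaGGACTggcagtct
Senp3 exon 2, chr11:69680173-69680193, minus strand: aggaagatGGACTaaggtgga
The methylated A of the Hyal2 site in the first set was 265 bases from the junction, and that in the second set was 18 bases from it, in the same exon 2. The levels of the first set are given with the genes below.

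Depth set the precision of every level. At these positions the median number of valid calls per library was between 39 and 49, with a minimum of 25 and a maximum of 882, and the libraries held between 17897440 and 71574467 valid calls over all positions. Calls below the confidence filter made up 3.34 to 3.8% of calls at these positions and 8.31 to 9.15% over all positions. Of 9 mESC marker genes, 9 had covered positions in the METTL3 inhibition dataset and 8 in the Mettl5 dataset, and none of 6 fibroblast and 6 differentiation markers had any. Mettl3 and Mettl5 themselves had 0 covered positions, so the knockout label was not checked here. For the inhibitor, the mean over all 38335 DRACH positions was 11.04% in DMSO and 2.74% in STM2457. Intervals on single sites are exact binomial (Clopper-Pearson) 95% intervals and cover counting error only.

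The mean methylation level of the 1141 positions was 19.4% in DMSO (SD 28.5 over positions, median 4.08%) and 5.34% in STM2457. In the Mettl5 dataset the mean of the 608 positions was 13.9% in WT (SD 23.9), 14.4% in clone #1 and 14.6% in clone #2. The levels were spread widely, with 602 positions under 5% in DMSO, 290 at 25% or more (the threshold for a methylated site) and 108 at 75% or more. These 290 were 5.27% of all DRACH sites at 25% or more in DMSO, from 2.98% of DRACH positions. Adenosines outside DRACH in the same exons had a mean of 1.07% in DMSO, with 31 of 12118 at 25% or more.

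Internal exons under 400 bases differed. Their 8704 DRACH positions had a mean of 1.16% in DMSO, and 52 of them reached 25%. The difference between long and short internal exons was 18.2 percentage points in DMSO, 4.98 in STM2457, 12.9 in WT, 13.4 in clone #1 and 13.6 in clone #2. Long exons were higher in 5 of 5 libraries (exact sign-flip permutation test over libraries, two-sided, p = 0.0625, the smallest p that 5 differences allow). Of 39 genes with DRACH positions in both classes of exon, 37 had the higher mean in the long exon in DMSO, and in WT this was so in 14 of 14. Coding sequence of last exons, the other place where m6A is known to collect, had a mean of 13.4% in DMSO over 6751 positions. As a description of the threshold, exons of 400 to 449 bases had a mean of 9.81% (139 positions) and those of 350 to 399 bases 7.06% (200 positions).

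**Figure D1:**
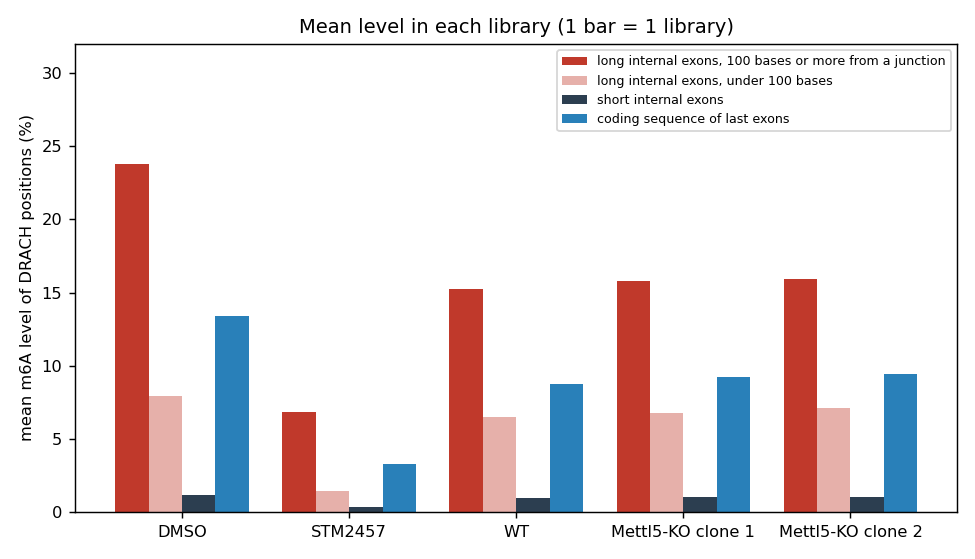
Mean m6A level in percent of DRACH positions in each of the 5 libraries, 1 bar per class of exon and library, with no error bar because each bar is 1 library. In all 5, positions 100 bases or more from a junction in long internal exons stood highest, at 23.8% in DMSO, and short internal exons lowest, at 1.16% in DMSO. The bars of short internal exons and of last exons pool all distances, so the ranking is not at equal distance. In DMSO, long internal exons were above last exons at 100 to 149 bases (20.7% and 15.6%). They were under last exons at 200 to 299 bases (22.0% and 25.7%).

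Within long exons, levels were higher further from the nearest junction. Positions 100 bases or more from a junction had a mean of 23.8% in DMSO (824 positions) and those nearer had 7.90% (317 positions). The difference was 15.9 percentage points in DMSO, 5.43 in STM2457, 8.73 in WT, 9.04 in clone #1 and 8.83 in clone #2, above 0 in 5 of 5 libraries (exact sign-flip permutation test, two-sided, p = 0.0625, again the smallest possible). The same held inside single exons, since 73 of 84 exons with positions on both sides of this limit had the higher mean far from the junction in DMSO, and 24 of 31 in WT. The libraries of a dataset share their positions, STM2457 and DMSO share a cell line, and sites of 1 exon can share reads, so these counts are not of independent events.

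Near the junction the levels were low but not equal to those of short exons. In the first 25 bases the mean in DMSO was 4.01% in long exons and 0.824% in short ones, and from 75 to 99 bases it was 15.5% and 1.59%. Over all positions under 100 bases, the long exons exceeded the short ones by 6.94 percentage points in DMSO and by 1.08 to 6.24 in the other libraries (exact sign-flip permutation test, two-sided, p = 0.0625). In the main settings these 3 differences were the only ones tested in this way, and Benjamini-Hochberg adjustment over them leaves p at 0.0625. Alternative settings of the long minus short and far minus near differences were tested in the same way, outside this adjustment, and are described at the end. Within a band of distance to the nearest junction the level also differed with exon length. Shorter exons also have their other junction closer, and motifs were not matched, so exon length was not separated from these. Between 100 and 199 bases from a junction, the mean in DMSO was 4.15% in exons of 200 to 299 bases, 8.16% in exons of 300 to 399 bases, 16.9% in exons of 400 to 599 bases, 22.3% in exons of 600 to 999 bases and 21.1% in those of 1000 bases or more (42 positions in 12 exons). In WT the same 5 groups had means of 2.58%, 3.63%, 12%, 14.2% and 7.46%, so the longest exons (23 positions in 6 exons) were under those of 400 to 999 bases.

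Further in, the mean in DMSO was 20.7% at 100 to 149 bases, 22.0% at 200 to 299 bases and 31.4% at 600 bases or more. The last value rests on 88 positions in 10 genes. In WT the mean reached 23.3% at 300 to 399 bases and was 12% at 600 bases or more, where 185 positions came from 6 genes. Both sides of an exon had low levels at the junction, with 2.68% in DMSO within 50 bases of the upstream junction and 5.10% within 50 bases of the downstream one, counting positions 200 bases or more from the other junction. Coding sequence of last exons went from 1.96% in the first 25 bases to 30.7% at 400 to 599 bases, with 24.1% at 600 bases or more (641 positions).

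**Figure D2:**
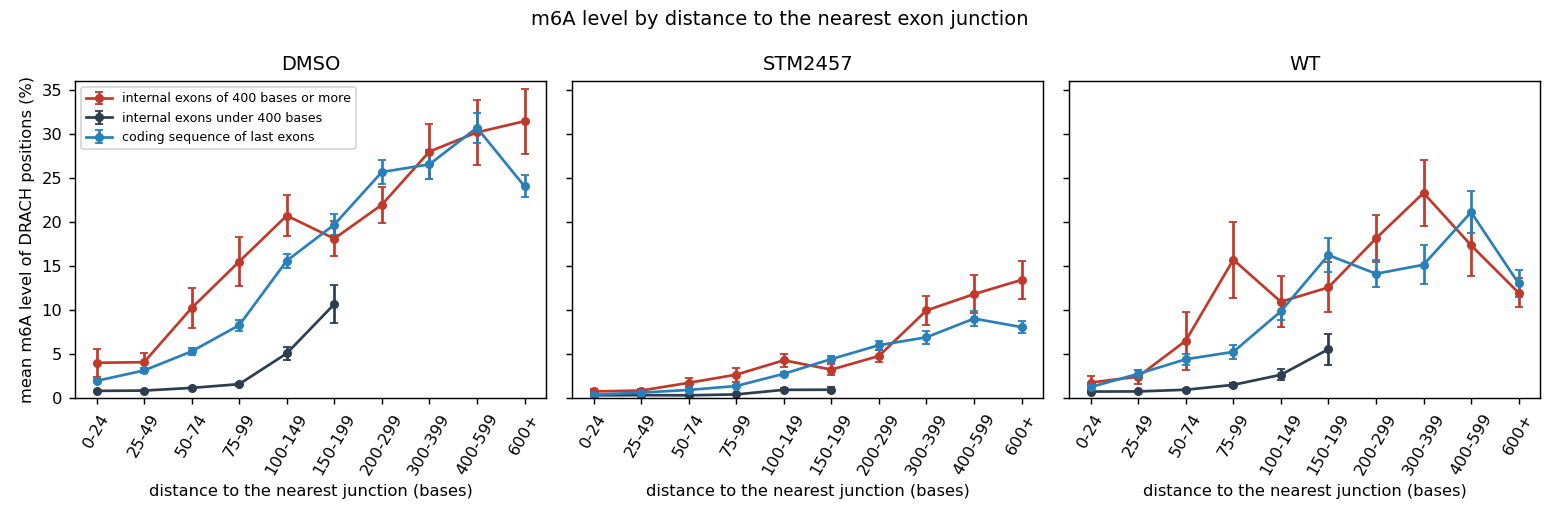
Mean m6A level in percent (y axis, ± standard error over positions) of DRACH positions by distance to the nearest junction in bases (x axis, bins of unequal width), for 3 classes of exon in the DMSO, STM2457 and WT libraries. In DMSO, long internal exons went from 4.01% in the first bin to 31.4% in the last, while short internal exons reached 10.7% at 150 to 199 bases.

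The 92 exons differed from each other. At least 1 site at 25% or more in DMSO was found in 72 of them, and 20 had none. Among 82 exons with 5 or more positions, the mean in DMSO ran from 0.672% to 39.3%, with a median of 16.8%. The 8 exons with most sites held 91 of the 290.

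Exon 4 of Msh6, which encodes a DNA mismatch repair protein and is 2536 bases long, had most positions (62) and most sites (18 at 25% or more in DMSO). Its mean was 20.2% in DMSO, 6.03% in STM2457, 18.1% in WT, 17.4% in clone #1 and 18.4% in clone #2. Within this exon the same motif met very different levels. GGACT at 299 bases from the upstream junction was at 84.0% in DMSO and 73.2% in WT. Near the downstream junction, GGACT was at 71.4% and 68.3% at 80 bases from it, and at 17.1% and 19.0% at 35 bases. GGACA was at 87.6% in DMSO at 1054 bases from the upstream junction and at 18.8% at 223 bases. Levels in this exon did not all follow distance. GGACT at 397 bases from the downstream junction was at 62.4% in DMSO and 50.8% in WT, under the GGACT at 80 bases. GGACA was at 24.1% in DMSO at 434 bases from the downstream junction and at 23.4% at 95 bases.

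Exon 4 of Ythdf1, a cytoplasmic reader of m6A, held 13 sites among 34 positions, with a mean of 29.0% in DMSO and 11.5% in STM2457. Exon 4 of Usp10, a deubiquitinase, held 11 sites among 23 positions, and 9 of these sites, from 354 to 771 bases after the upstream junction, were between 72.4% and 98.3% in DMSO. Exon 5 of Map1s, a microtubule-associated protein, also held 11 among 23. Exon 2 of Wdr6, which takes part in tRNA methylation, held 11 among 32, and exon 10 of Cand1, the exchange factor of cullin ubiquitin ligases, held 10 among 26. The means of these 4 exons in DMSO were 38.9%, 38.3%, 29.6% and 33.0%, in this order. Exon 2 of Polr2m, a subunit of RNA polymerase II, held 8 among 21 positions with a mean of 18%.

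**Figure D3:**
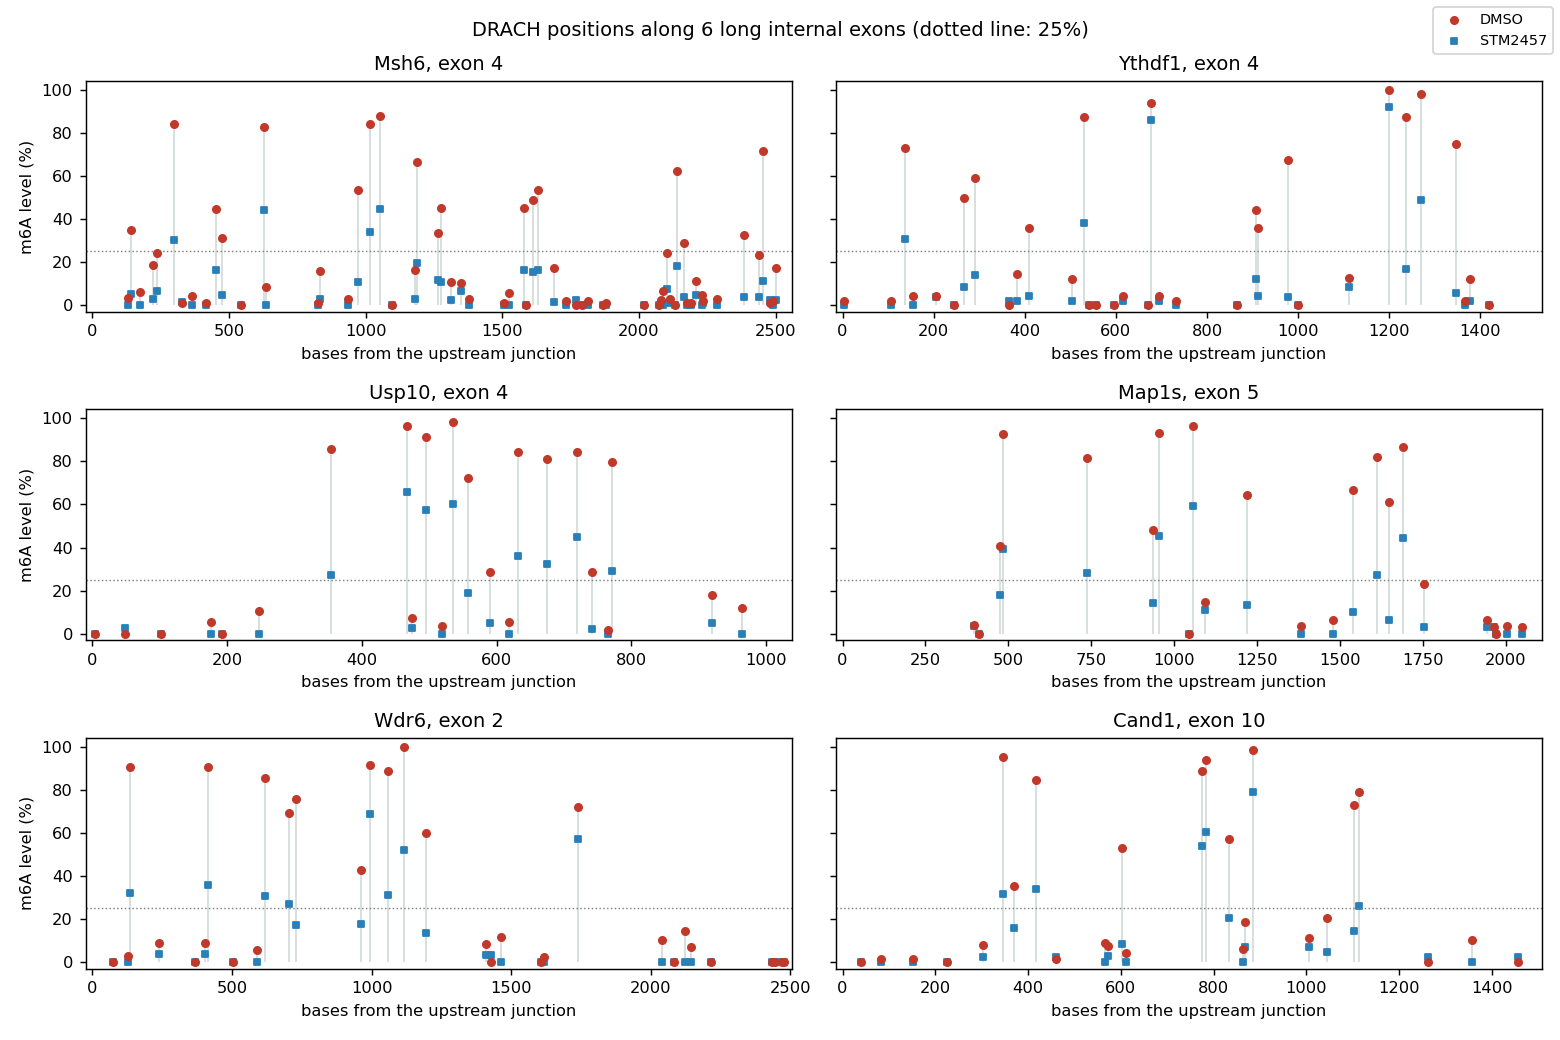
m6A level in percent (y axis) of each DRACH position along 6 long internal exons, by bases from the upstream junction (x axis), with DMSO as red circles and STM2457 as blue squares. In Usp10, positions from 354 to 771 bases reached 98.3% in DMSO, and in Msh6 a GGACT 80 bases from the downstream junction was at 71.4%. Squares lay below circles at the high sites.

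Exon 4 of Tex10, a protein of the nucleolus that binds pluripotency factors, had the highest mean of these, 39.3% in DMSO and 9.59% in STM2457. A stretch of 150 bases in it (mm10 chr4:48468564-48468713, minus strand) is shown because all 6 of its DRACH positions were at 25% or more in DMSO, the densest run found, with each motif in capitals.
Tex10 exon 4: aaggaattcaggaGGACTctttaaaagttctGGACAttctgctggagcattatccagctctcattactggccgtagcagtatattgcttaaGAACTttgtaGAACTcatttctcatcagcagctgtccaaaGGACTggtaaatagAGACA
From 5′ to 3′ the 6 sites were at 86.8%, 94.6%, 88.2%, 56.2%, 69.2% and 27.5% in DMSO. In STM2457 they were at 21.9%, 34.5%, 29.0%, 6.67%, 6.25% and 6.25%. Of the 6, 5 were called lower, and the last, an AGACA, was not (Fisher's exact test, adjusted p = 1.0). The intervals of the neighbouring GAACT sites, 10 bases apart, overlapped in both libraries. In WT the 5 that were covered were at 88.5%, 100%, 96.2%, 64.0% and 33.3%.

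Other long exons had many motifs and no site. Exon 4 of Maged1, a MAGE family protein, had 21 positions with a mean of 2.06% in DMSO and a highest level of 7.94%. Exon 10 of Nolc1, a nucleolar phosphoprotein, had 12 positions and a mean of 4.10%, and exon 6 of Lyar, another nucleolar protein, had 11 positions and a mean of 2.58%. Their positions had a median of 62, 133 and 49 valid calls in DMSO. None of the 21 Maged1 positions had a GGAC motif, and 2 of 12 and 2 of 11 did in Nolc1 and Lyar. The same 5-mers in the other long exons had a mean of 11.9% for the Maged1 set, 15.6% for Nolc1 and 11.7% for Lyar.

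The letters around the A went with the level. GGACT had the highest mean in DMSO, 56.2% (SD 34.1, 90 positions), then GAACT with 44.6% (57), GGACA with 43.6% (105), AGACT with 33.0% (65) and GGACC with 21.4% (116). TAACC had the lowest, 0.694% (22 positions). A T after AC had a mean of 36.1%, an A 17.6% and a C 7.90%. The order was alike in WT, with 56.2% for GGACT (35 positions), 41.3% for GAACT and 32.7% for GGACA.

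Both motif and exon went with the level. In DMSO, 18 of 18 5-mers had the higher mean far from the junction and 18 of 18 had the higher mean in long than in short internal exons, where GGACT was at 4.93% (507 positions). In WT these counts were 15 of 17 and 17 of 18. Within 50 bases of a junction, GGACT had a mean of 22.0% in DMSO (14 positions), at 50 to 99 bases 45.2% (19), at 100 to 199 bases 56.7% (27) and at 200 bases or more 78.8% (30). At the last distance 29 of 30 GGACT positions were sites, the lowest of the 30 being at 11.1%.

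GGACT near a junction was not always low. The exception closest to a junction was in exon 10 of Zmynd8, a chromatin reader, 20 bases from the downstream junction, with 100% in DMSO (25 valid calls, interval 86.3 to 100%) and 22.2% in STM2457. Exon 2 of Senp3, a SUMO protease, had GGACT 40 bases from the downstream junction at 64.6% (99 valid calls, interval 54.4 to 74.0%) and 6.25% in STM2457. At the other end, GGACT in exon 5 of Pak4, a kinase, was at 0% of 35 valid calls (interval 0 to 10%) at the same distance.
Zmynd8 exon 10, chr2:165828218-165828238, minus strand: gagtccatGGACTtccttgat
Pak4 exon 5, chr7:28564236-28564256, minus strand: aagaagatGGACTtgcgcaag

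After METTL3 inhibition, of 1141 positions in these exons, 258 in 71 genes were lower in STM2457 than in DMSO and 0 were higher, by Fisher's exact test with adjusted p below 0.05 over all 471848 positions of the dataset. Without adjustment, at p under 0.05, 395 were lower and 0 higher. The share called lower was 22.6%, beside 1.35% of all positions and 14.6% of all DRACH positions, and 0.00254% of all positions were called higher. Among the sites at 25% or more in DMSO the share was 81.4% (236 of 290), beside 80.1% of all DRACH sites at this level. These sites are set by their DMSO level, which is part of the contrast, so their counts are a description, and the share was near that of DRACH sites in general. In short internal exons 1.4% of DRACH positions were called lower, and in coding sequence of last exons 18.8%.

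The mean level over the 1141 positions was lower in STM2457 by 72.4% of its DMSO value. The same measure was 75.7% in coding sequence of last exons and 69.0% in short internal exons, where the mean started from 1.16%. Adenosines outside DRACH in the same long exons went from 1.07% to 0.815%. At the 290 sites the level was lower in STM2457 at all 290, by 74.6% on average (SD 19.0, median 80.1%, range 8.16 to 100%), and 74 were still at 25% or more.

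The sites shown first gave the range of responses. GAACT in exon 2 of Hyal2, a hyaluronidase, went from 94.0% to 15.3% (Fisher's exact test, adjusted p = 7.9e-18). GGACT in exon 4 of Actg1, cytoplasmic actin, went from 89.4% of 282 calls to 13.4% of 172 (adjusted p = 5.5e-59, Fisher's exact test), where the assignment of reads between Actg1 and its close paralog Actb was not checked. GGACA in exon 12 of Chaf1b, a chromatin assembly factor, went from 77.6% to 16.1%. In these 3 the STM2457 level was far under the DMSO level.

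Other sites of the same set kept more. GGACA in exon 2 of Dnajb1, a co-chaperone of Hsp70, was at 100% of 80 valid calls (interval 95.5 to 100%) and at 51.9% in STM2457 (37.8 to 65.7%). The Ythdf1 site went from 98.0% to 49.0%, and the Msh6 site from 87.6% to 44.8%. Pelp1, a coregulator of nuclear receptors, went from 84.3% to 26.2%, and Cdca5, which encodes sororin of the cohesin machinery, from 80.3% to 31.6%. All 5 were called lower by Fisher's exact test, with adjusted p from 1.4e-06 (Ythdf1) to 1.8e-10 (Dnajb1).

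Degs1 and Cog8 were not called. GGACT in exon 2 of Degs1, the dihydroceramide desaturase, went from 92.3% (83.0 to 97.5%) to 70.3% (57.6 to 81.1%), with adjusted p = 0.099 by Fisher's exact test. GGACT in exon 3 of Cog8, a subunit of a Golgi tethering complex, went from 96.1% (86.5 to 99.5%) to 82.4% (69.1 to 91.6%), with adjusted p = 1.0 by Fisher's exact test.

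**Figure D4:**
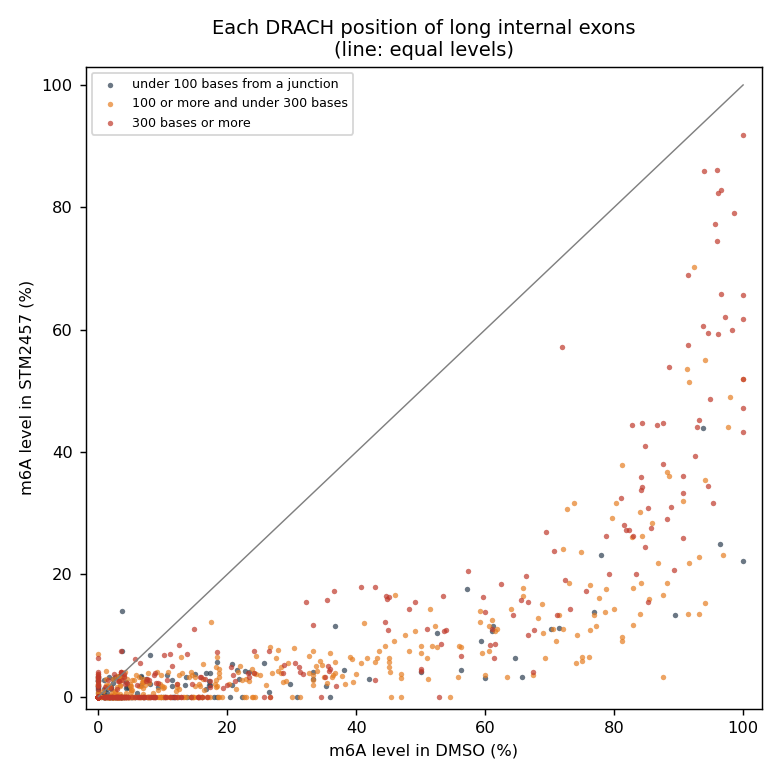
m6A level of each of the 1141 DRACH positions in DMSO (x axis, percent) and STM2457 (y axis, percent), coloured by distance to the nearest junction, with the line of equal levels. All 290 positions at 25% or more in DMSO lay under the line, and the highest level in STM2457 was 91.8%.

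The smallest relative decreases sat beside large ones in the same exon. In exon 4 of Ythdf1, GGACA at 1199 bases from the upstream junction went from 100% to 91.8% and GGACA at 676 bases from 94.0% to 86.0%, relative decreases of 8.16% and 8.51%. Neither was called lower (Fisher's exact test, unadjusted p = 0.12 and 0.32). Their intervals overlapped, 92.5 to 100% and 80.4 to 97.7% at the first, 83.5 to 98.7% and 73.3 to 94.2% at the second. The first rested on 47 and 49 valid calls, under the minimum of 50 used to choose named sites. In the same exon AAACT at 977 bases went from 67.3% to 4.08% and GGACT at 1237 bases from 87.5% to 16.7%. In exon 3 of Cog8, AGACT 34 bases before the GGACT site went from 96.0% to 74.5%, while AGACT 121 bases from the downstream junction went from 46.9% to 0% of 49 calls (interval 0 to 7.25%). The first of these 2 Cog8 sites was not called (Fisher's exact test, adjusted p = 0.24), and the second was. The deposited calls are per position and do not link positions of 1 read.
Ythdf1 exon 4, chr2:180911521-180911541, minus strand: cataacatGGACAttggtact
Ythdf1 exon 4, chr2:180910998-180911018, minus strand: atgggagtGGACAtttctgtg
Ythdf1 exon 4, chr2:180911220-180911240, minus strand: tcctggagAAACTgaaagctg
Cog8 exon 3, chr8:107052622-107052642, minus strand: ggtgctagAGACTgaccttta

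Relative decrease went with distance to the junction and with the starting level. Over sites at 25% or more in DMSO it was on average 85.1% under 100 bases (29 sites), 81.4% at 100 to 199 bases (82), 80.1% at 200 to 299 bases (64), 67.4% at 300 to 399 bases (43) and 62.2% at 400 bases or more (72). The SD within these groups was between 10.7 and 22.6, and the groups overlap. By starting level it was 84.2% for sites under 50% in DMSO (99), 81.3% for those from 50 to 75% (83) and 60.7% for those at 75% or more (108). Deep sites also started higher, and the 2 were not separated. Among sites at 50% or more in DMSO the decrease was 81.9% under 100 bases (18 sites, mean 70.2% in DMSO) and 56.7% at 400 bases or more (51 sites in 18 genes, mean 81.8%). In coding sequence of last exons the same limits gave 79.0% and 65.1%. With 1 library per condition and sites sharing genes, these means are given without a test.

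By motif, GGACT sites under 200 bases from a junction had a mean relative decrease of 80.6% (38 sites) and those at 200 bases or more 54.5% (29 sites), and 17 of the latter were still at 25% or more. GGACA sites gave 79.3% and 66.8% at the same limits. By exon, the relative decrease of the mean was 56.1% in Cand1, 56.5% in Usp10 and 58.0% in Wdr6, the least among 25 exons with 5 or more sites. It was largest of the 25 in Umps, which encodes UMP synthase, with 84.2%, then Asnsd1 with 82.8% and Polr2m with 81.8%. The median of the 25 was 70.2%.

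In the METTL3 inhibition dataset, 88 of 2502 genes with covered positions had DRACH positions in a long internal coding exon. Lists of genes of m6A, stem cell, chromatin and other functions were looked up among them. The lists are not complete, and Chaf1b, Zmynd8 and Tex10, which are described in this report, are not on them. Of 20 genes of the m6A machinery, 4 had covered positions and only Ythdf1 had DRACH positions in a long internal exon, 11 of its 34 called lower in STM2457. Of 26 pluripotency genes, 13 had covered positions in the METTL3 inhibition dataset and 1 had members of this class, Klf2, a transcription factor of naive pluripotency. Its 3 sites in exon 2, all called lower, went from 42.0% to 2.92%, from 33.3% to 2.67% and from 36.9% to 1.66%, and 4 of its 9 positions were called lower. Of 34 chromatin genes on the list, 9 had covered positions and only Msh6 was represented, with 18 of 62 positions called lower. Of 22 genes of translation and mRNA fate, 5 had covered positions, and Eif4g1 and Ncl were represented, with 3 of 18 called lower. The 18 genes of the exon junction complex and mRNA decay (5 covered) and the 24 of mitosis (3 covered) had no such positions. Beside these counts, 22.6% of all 1141 positions and 14.6% of all DRACH positions were called lower. Outside the lists, exon 2 of Nodal, a signalling ligand of the TGF-beta family, held 6 sites from 33.3% to 91.7% in DMSO that were between 2.86% and 33.3% in STM2457.

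No position in these exons was called different from WT in either Mettl5-KO clone. The mean over the 608 positions was 0.539 percentage points above WT in clone #1 and 0.728 above it in clone #2, and the clones differed from each other by less than that. With all calls pooled, WT stood at 12.1%, clone #1 at 12% and clone #2 at 12.6%, so that clone #1 was no longer above WT, and the mean difference of the clones from WT went from 0.634 to 0.196 percentage points. By Fisher's exact test with adjusted p below 0.05 over all 195787 positions, 0 of 608 were lower and 0 higher in each clone. Without adjustment, at p under 0.05, 5 were lower and 8 higher in clone #1, and 4 lower and 10 higher in clone #2. Over all positions 0.00204% were called lower and 0% higher in clone #1, 0.00306% lower and 0.00358% higher in clone #2, and 0.00204% lower and 0% higher in both. Both clones were compared with the same WT library. At these depths the test can miss large decreases at single sites, so 0 calls do not show that levels were equal.

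Of 108 sites at 25% or more in WT, 94 were so in clone #1 and 101 in clone #2, and of 124 sites at this level in any of the 3 libraries, 92 were so in all 3. The level was lower than WT in both clones at 142 positions and higher in both at 157. In short internal exons 0 of 4156 positions were called in either clone, and in coding sequence of last exons 0 of 2284.

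**Figure D5:**
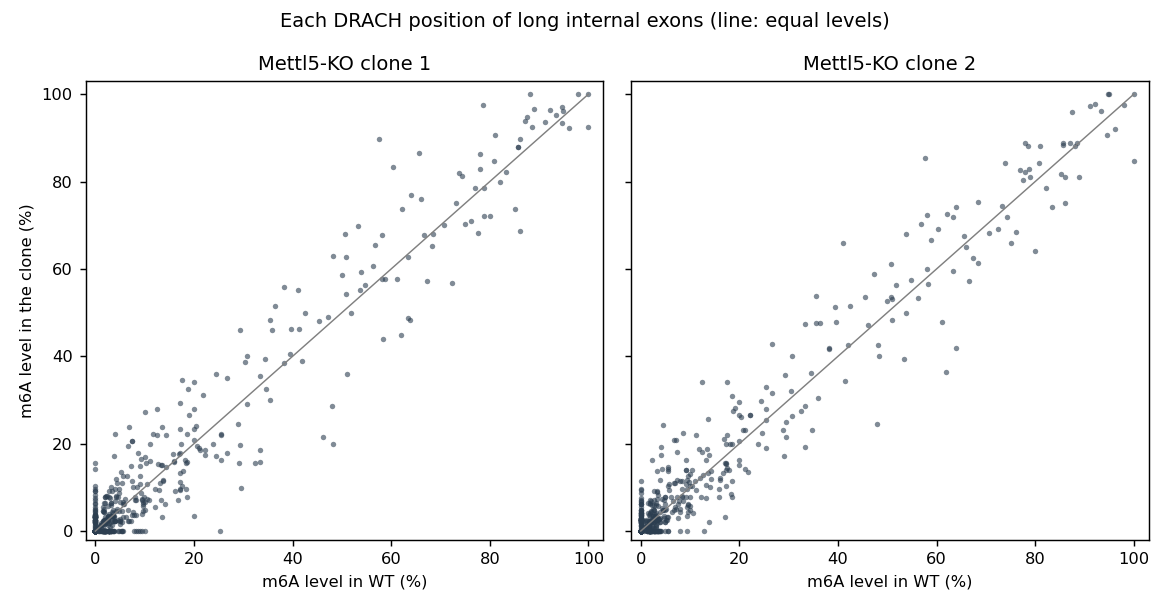
m6A level of each of the 608 DRACH positions in WT (x axis, percent) and in each Mettl5-KO clone (y axis, percent), with the line of equal levels. The points scatter on both sides of the line in both clones, with 213 positions lower and 249 higher in clone #1 and 208 lower and 269 higher in clone #2.

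The 5 highest WT sites with 40 or more valid calls in all 3 libraries, at most 1 per gene, were in Slc16a3, Mycn, Msh6, Polr2m and Eif3a. Those not yet shown are printed with the only position that passed an unadjusted p of 0.05 in both clones in the same direction.
Slc16a3 exon 5, chr11:120956712-120956732, plus strand: tggtgctgGGACTctttgtgc
Mycn exon 2, chr12:12940040-12940060, minus strand: atccttcaGGACTgcatgtgg
Polr2m exon 2, chr9:71483690-71483710, minus strand: ggagaagtGAACTgtttcatc
Eif3a exon 19, chr19:60766670-60766690, minus strand: ccagacggGGACTggatgatg
Slc16a1 exon 4, chr3:104652888-104652908, plus strand: gatattttTGACTggagagga
GGACT in exon 5 of Slc16a3, a lactate transporter, had levels of 94.9%, 96.1% and 100% in WT and clones #1 and #2, in this order. In exon 2 of Mycn, a MYC family transcription factor, it was at 93.4%, 95.1% and 96.2%, and in exon 19 of Eif3a, a translation initiation factor subunit, at 77.9%, 82.9% and 82.1%. The Msh6 site was at 85.7%, 87.8% and 88.3%, and the Polr2m site at 78.8%, 78.4% and 81.0%. None of these 5 sites passed the test in either clone, with the smallest unadjusted p at 0.25 by Fisher's exact test.

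TGACT in exon 4 of Slc16a1, the transporter of lactate and pyruvate, was the exception and was picked out after its values were seen. It was at 57.6% of 33 calls in WT, 89.7% of 29 in clone #1 and 85.4% of 41 in clone #2, with unadjusted p of 0.0090 and 0.0094 by Fisher's exact test and adjusted p of 1.0 in both. In DMSO it was at 78.6% of 28 calls, between WT and the clones, and in STM2457 at 13.9%.

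The longest exons of this dataset held many sites as well. Exon 3 of Akap12, a scaffold for protein kinase A that is 4798 bases long, had 117 positions with 13 sites in WT, 10 in clone #1 and 12 in clone #2, and a mean of 7.96%, 7.57% and 7.85%. Exon 30 of Rif1, a regulator of replication timing and telomeres, had 76 positions with 10, 8 and 10 sites and a mean of 10.5%, 11.6% and 11%. Klf2 had a mean of 11.9%, 8.57% and 13.4% over 7 positions, on either side of WT. Neither of these large exons was called at any position in either clone.

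Positions covered in both datasets had levels of the same order in the separate cultures. Over the 285 shared positions the levels in DMSO and WT correlated across positions (Pearson 0.978, Spearman 0.867), which share motif and exon and are not independent. Of 66 sites at 25% or more in DMSO and 62 in WT, 60 were the same. The mean was 18.3% in DMSO, 16.5% in WT, 17.0% in clone #1, 17.4% in clone #2 and 5.02% in STM2457. The DMSO mean of all 1141 positions and the WT mean of all 608 differed by more than this, with different genes in the 2 sets.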

How the data were processed

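Nanopore direct RNA sequencing gave 5 libraries. The authors split the barcoded reads with WarpDemuX, used dorado for base and modification calls and for alignment to mm10, and summed calls with modkit pileup. The deposited counts are valid calls, m6A calls, unmodified calls and failed calls per position and strand, not normalized. The deposited percent is 100 times m6A over valid calls, and levels were computed the same way. Every position had 25 or more valid calls in each library of its dataset. Because reads begin at poly(A) tails, abundant transcripts and 3′ ends are covered best, and long exons far from the end are under-covered.

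Positions were placed on GENCODE M21 protein-coding transcripts linked to RefSeq, 1 principal transcript per gene, and 99.9% had an A there. Distance is to the nearest end of the exon, with 100 bases as the limit between near and far. A two-sided Fisher's exact test set m6A against other valid calls at each position, with Benjamini-Hochberg adjustment over all positions of a dataset, without regard to class (scipy 1.17.1 with pandas 2.3.3, numpy 2.4.6 and Python 3.11.15). Differences between classes were tested over the 5 libraries with an exact sign-flip permutation test. The scripts were tested on simulated data with known changes. Many planted decreases were missed at the depths of these libraries, and most were missed when both clones had to pass.

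The sites, exons and gene lists were chosen with earlier results of these data known. Named exons were the 8 with most sites in DMSO and the 3 with most positions and none. For the last of these 3, exon 4 of Pak4 tied with exon 6 of Lyar at 11 positions and was left out. Its mean in DMSO was 4.38%. Named sites were the 10 with the highest DMSO level, the 5 with the smallest relative decrease and the 5 with the highest WT level, each with a minimum of 50 or 40 valid calls, the genes of the lists with positions here, and GGACT within 50 bases of a junction. Other sites of named exons, of Nodal and of Akap12 were added after values were seen. Alternatives were other minimums of valid calls and exon length, all transcripts, failed calls in the denominator, pooled and per-gene means, other thresholds and each clone left out, and, added after the data were seen, means within each 5-mer and leaving out the gene with most positions or genes with close paralogs.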

Additional observations from a re-analysis of the deposited data

How the results depend on the processing

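Depth limits single sites most, since most rest on under 50 calls in a library. The far minus near difference in DMSO kept its direction in all 15 alternatives (11.1 to 18.4 percentage points), as did the long minus short difference (6.94 to 21.3, the lowest being under 100 bases from a junction), and both stayed above 0 in all 5 libraries. Their permutation p cannot fall below 0.0625, so it says nothing on stability. With 50 or more valid calls in every library, 95 of 344 positions were called lower in STM2457 in place of 258 of 1141, as fewer positions were tested. At an unadjusted p under 0.05, 395 were called lower in STM2457, and 1 was called in both clones.

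The mean level in DMSO was 18.9% above 25 calls, 17.2% at 50 or more calls, 15.9% for exons of 300 bases or more, 22.4% for 600 or more, 18.6% with failed calls in the denominator, 16.8% pooled, 18.3% as the mean of genes, 22.6% for DGACH and 19.7% without Actb, Actg1, Slc25a4 and Slc25a5. GGACT in DMSO was at 48.5% with 50 or more calls, 49.2% for 300 bases, 63.5% for 600, 54.8% with failed calls, 54.0% pooled and 55.2% as the mean of genes. The relative decrease in STM2457 was 74.2% with 50 or more calls, 70.0% for 600 bases, 74.0% pooled and 75.4% as the mean of genes. The clones minus WT difference was 0.196 points pooled (with clone #1 below WT), 0.967 as the mean of genes, 0.828 for DGACH and 0.846 without Akap12, and 0.539 to 0.728 with 1 clone left out. Other alternatives moved these values by less than counting error or the spread between clones.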

Other observations

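GGACG, which is not a DRACH motif because its last base is G, also carried m6A calls in these exons. Its 42 positions in 30 genes had a mean of 21.9% in DMSO (SD 27.1) and 4.77% in STM2457, with 12 at 25% or more in DMSO and 11 called lower in STM2457 by Fisher's exact test, beside 1.35% of all positions. In short internal exons the mean of GGACG was 1.59% in DMSO with 2 of 335 positions called lower, and in coding sequence of last exons 14.4% with 65 of 289 called lower. In the Mettl5 dataset, 14 GGACG positions of long internal exons had a mean of 5.18% in WT, 5.60% in clone #1 and 8.53% in clone #2.

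Of the 9 adenosines outside DRACH that were at 50% or more in DMSO in these exons, 8 were GGACG, and all 8 were called lower in STM2457. They included exon 2 of Dnajb1, with 67.5% of 80 calls in DMSO and 5.56% of 54 in STM2457, exon 2 of Dusp6, a phosphatase of ERK kinases, with 88.2% and 18.8%, and 2 positions in exon 3 of Tpst2, a tyrosylprotein sulfotransferase, with 78.1% and 69.7% in DMSO. The other was GTACT in exon 3 of Cog8, with 97.7% in DMSO and 81.4% in STM2457, which was not called (Fisher's exact test, adjusted p = 1.0). It lay in the exon that held the Cog8 sites with small relative decreases. The genome sequence of these cell lines was not read here.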
